A study of Mus musculus with 54 samples.

Results

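At ZT12, 12 h after lights on and the start of the dark phase, the livers of mice with the clock factor BMAL1 restored in the liver alone (Liver-RE) were compared with wild-type (WT) livers. The comparison rests on 6 of the 54 libraries of the series, 3 Liver-RE and 3 WT, each from total RNA of mouse liver. Of 18079 genes in the table, 11550 had a mean of at least 0.5 FPKM (reads scaled by transcript length and sequencing depth) over the 6 libraries and were tested. The 6529 genes below that level, among them 2 of the 18 core clock genes listed, were not tested. The other libraries of these genotypes, 3 at each of ZT0, 4, 8, 16 and 20, served to ask whether a ZT12 difference was present at all times or went with an earlier phase.

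All groups were female C57BL/6J mice of 8 to 12 weeks, given normal chow without restriction under 12 h light and 12 h dark. The Liver-RE animals carried the genotype Liver-RE BMAL1-stop-FL, described by the labels as a BMAL1 knockout with the gene put back in liver, so the rest of the body has no BMAL1. The driver that restores the gene, and hence which liver cells regain it, is not given in the labels. The third genotype, BMAL1 knockout (KO), enters only beside single genes. In whole liver, fewer cells of a type and less RNA per cell cannot be told apart.

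In the liver clock, BMAL1 (encoded by Arntl) and CLOCK form a pair that binds E-box sequences and drives the genes of their own repressors, the PER and CRY proteins and CIART. The same pair drives the REV-ERB receptors (Nr1d1, Nr1d2), which repress Arntl, and the D-box activators DBP, TEF and HLF, which NFIL3 opposes. Genes downstream tie heme, lipid and sterol metabolism to the hour. A clock that runs early shows at any fixed hour as a set of genes that are too high and another that are too low, and the same genes show the opposite difference at another hour. A gene whose level differs whatever the hour keeps the same sign through the day.

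The promoters of 3 clock genes with lower means in Liver-RE at ZT12 are shown because they hold the letters that clock factors are known to bind. Each is the 250 bases before an annotated start (RefSeq, GRCm38.p6). The E-box CACGTG is in capitals for Ciart and Per1, and the D-box TTATGTAA is in capitals for Per3. Per1 has 2 annotated starts, and the first whose promoter holds the E-box is shown. That start lies inside the span given below for the Per1 gene.
Ciart (chr3:95882229-95882478, minus strand): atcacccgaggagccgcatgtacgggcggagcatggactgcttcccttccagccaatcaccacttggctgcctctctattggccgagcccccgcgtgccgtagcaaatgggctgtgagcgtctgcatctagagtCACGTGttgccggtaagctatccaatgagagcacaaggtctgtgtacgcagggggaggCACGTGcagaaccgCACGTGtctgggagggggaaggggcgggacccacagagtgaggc
Per1 (chr11:69098699-69098948, plus strand): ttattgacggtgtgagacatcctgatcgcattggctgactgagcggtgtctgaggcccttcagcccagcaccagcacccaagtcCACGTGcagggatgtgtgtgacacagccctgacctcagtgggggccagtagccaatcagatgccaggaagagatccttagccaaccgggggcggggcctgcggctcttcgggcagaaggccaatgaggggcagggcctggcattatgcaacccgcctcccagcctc
Per3 (chr4:151044666-151044915, minus strand): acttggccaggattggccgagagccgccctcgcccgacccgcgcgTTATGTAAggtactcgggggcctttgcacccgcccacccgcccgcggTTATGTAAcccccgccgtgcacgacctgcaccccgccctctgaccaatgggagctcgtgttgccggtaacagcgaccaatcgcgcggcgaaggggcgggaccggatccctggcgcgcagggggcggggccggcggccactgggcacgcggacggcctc
The E-boxes of Ciart begin 116, 58 and 44 bases before its start. That of Per1 begins 166 bases before the start shown, and the D-boxes of Per3 begin 205 and 158 bases before. Over 32851 RefSeq promoters of this length, 6.02% held CACGTG, which reads the same on both strands. A D-box, searched as TTATGTAA, TTACATAA or TTACGTAA so that both strands were covered, was found in 0.93%. Of the 83 genes that passed the test below, 61 had a promoter entry, 6 of them (9.84%) with an E-box and 2 with a D-box. A gene was counted when any of its annotated starts held the motif, whereas the shares above are of single promoters. The gene counts and those shares are therefore not like for like, and no share per gene over all genes was made. Among other clock genes, Cry1, with a higher mean in Liver-RE at ZT12, and Tef, with a lower mean, also held an E-box. Dbp, Nr1d1 and Nr1d2, all with lower means in Liver-RE, held neither motif in this window. A match describes the letters and is not evidence of binding.

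Across the tested genes, 83 differed at ZT12, which is 0.719% of 11550 (limma on log2(FPKM + 1), Benjamini-Hochberg adjusted p under 0.05). Of these, 33 (0.286% of those tested) were higher in Liver-RE and 50 (0.433%) were lower, and 42 differed by 2-fold or more (23 higher, 19 lower). The smallest adjusted p was 0.001053, for Timp3, and 2272 genes had an unadjusted p under 0.05. All 83 had libraries that did not overlap between the groups, as did 3011 of the tested genes (26.1%; 5.26% with Liver-RE higher and 20.8% with Liver-RE lower). The median log2 difference of all tested genes was -0.10, which quantile normalization moved to -0.01. With that normalization 41 genes were called higher and 16 lower, and with the 20 highest genes left out and the values rescaled 32 and 26, so the balance of higher and lower calls depended on the scaling.

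A fit of all 36 WT and Liver-RE libraries, which draws the spread from every harvest time, called 382 genes at ZT12 (3.31%; 69 higher, 0.597%, and 313 lower, 2.71%), 57 of them among the 83.

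The Liver-RE libraries were not alike in their clock genes, and replicate 3 stood apart. The median absolute difference of its clock genes from the WT mean was 0.44 on the log2 scale, against 0.93 in replicate 1 and 1.26 in replicate 2. Leaving out that library raised the calls from 83 to 159 (1.38% of those tested; 80 higher, 0.693%, and 79 lower, 0.684%), of which 66 were among the 83. Leaving out any of 4 other libraries lowered them, to 9 without WT replicate 3, 14 without Liver-RE replicate 1, 23 without WT replicate 2 and 36 without Liver-RE replicate 2. At other hours, replicate 2 of WT at ZT8 was out of phase with its group, with Arntl at 10.6 FPKM against 0.41 and 0.56. Both libraries are used as labelled, and whether their labels are right was not tested. The sums of FPKM lay between 338846 and 419402 in the 6 ZT12 libraries, and their depth, read off the steps between low values, was about 28.5 to 37.0 M reads (mega reads).

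Among clock genes, Liver-RE at ZT12 had more RNA of the activator gene Arntl and less of 2 repressor genes and of a REV-ERB gene. Of 16 clock genes tested, 1 rose (Arntl) and 3 fell (Ciart, Per1 and Nr1d1), beside 0.719% of all tested genes. Without overlap between the groups, 4 were higher (Arntl, Clock, Cry1 and Nfil3) and 8 were lower, where 5.26% and 20.8% of all tested genes were. The median log2 difference of the 16 was -0.55, against -0.10 over all tested genes. Without Liver-RE replicate 3, 3 clock genes were called higher and 6 lower.

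Arntl (chromosome 7, 113178471 to 113314126), the gene of BMAL1 itself, stood at 0.46, 0.49 and 0.35 FPKM in the WT livers and at 5.95, 7.49 and 2.75 FPKM in Liver-RE. All Liver-RE livers were above all WT livers, the lowest being replicate 3, and the log2 difference was 2.07 (SE 0.26, limma adjusted p = 0.01576). With a WT mean of 0.44 FPKM, Arntl passed the filter of 0.5 FPKM only through Liver-RE, so some difference was required of it. KO livers at ZT12, labelled as lacking BMAL1, had 8.39, 7.02 and 8.39 FPKM. Clock, the partner of BMAL1, was measured at 3.31, 3.83 and 3.54 FPKM in WT and at 7.64, 9.38 and 5.30 in Liver-RE. The groups were apart, but the difference of 0.86 (SE 0.17) missed the threshold at an adjusted p of 0.06455, and without Liver-RE replicate 3 it was 1.06 with an adjusted p of 0.01467.

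Ciart (chromosome 3, 95878500 to 95882257), the repressor whose promoter holds 3 E-boxes, was at 5.55, 4.06 and 5.94 FPKM in WT and at 0.39, 0.20 and 0.60 in Liver-RE. Its fall of 2.14 on the log2 scale (SE 0.16, adjusted p = 0.001219, limma) was the largest among the called genes. With a Liver-RE mean of 0.40 FPKM, Ciart passed the filter of 0.5 FPKM only through WT, so some difference was required of it. Per1 (chromosome 11, 69095108 to 69109965), a light- and hormone-responsive repressor, was at 4.02, 4.98 and 5.32 FPKM in WT and at 1.41, 1.03 and 1.55 in Liver-RE. Per1 fell by 1.31 (SE 0.13, adjusted p = 0.01011), with the Liver-RE livers close together. Per2 and Per3, which act in the same repressor complex, were below WT in every Liver-RE library but missed the threshold, with differences of -0.74 (SE 0.16, limma adjusted p = 0.07265) and -0.77 (SE 0.22, adjusted p = 0.1229). Cry1, the late repressor, was at 5.16, 5.89 and 6.88 FPKM in WT and at 9.63, 10.9 and 7.03 in Liver-RE, without overlap, and its difference of 0.53 (SE 0.17) had an adjusted p of 0.1403. Cry2 overlapped between the groups, at 6.80 ± 0.942 FPKM in WT and 6.60 ± 0.925 in Liver-RE (SD, n = 3).

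Nr1d1 (chromosome 11, 98767932 to 98775377), which encodes REV-ERB alpha, was at 4.17, 3.42 and 4.72 FPKM in WT and at 0.52, 0.51 and 1.46 in Liver-RE. It fell by 1.51 (SE 0.20, limma adjusted p = 0.01576). Nr1d2, its close relative, was at 36.9, 33.2 and 31.4 FPKM in WT and at 9.43, 11.9 and 25.1 in Liver-RE. Replicate 3 lay nearest WT, and the difference of -1.19 (SE 0.29) had an adjusted p of 0.08801, or 0.005262 without that library. Rora, an activator that competes with REV-ERB at the same sites, overlapped between the groups.

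Dbp, a D-box activator and one of the most strongly cycling genes in liver, was at 48.5, 34.1 and 35.7 FPKM in WT and at 4.19, 2.02 and 15.9 in Liver-RE. The groups were far apart, but replicate 3 widened the spread, and the difference of -2.64 (SE 0.51) had a limma adjusted p of 0.05814, or -3.34 and 0.001735 without that library. Tef was at 47.8, 48.6 and 45.5 FPKM in WT and at 24.3, 19.5 and 31.9 in Liver-RE (difference -0.91, SE 0.17, adjusted p = 0.05805). Nfil3, the repressor at D-boxes, was at 4.13, 4.24 and 5.12 FPKM in WT and at 13.3, 12.4 and 6.32 in Liver-RE (difference 1.03, SE 0.23, adjusted p = 0.07674). Hlf overlapped between the groups. Of the 4 called clock genes, Arntl and Nr1d1 lost their calls without Liver-RE replicate 1 (limma adjusted p from 0.06802 to 0.06902) and without WT replicate 3 (from 0.0582 to 0.06568), and Ciart and Per1 kept theirs whichever ZT12 library was left out.

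**Figure D1:**
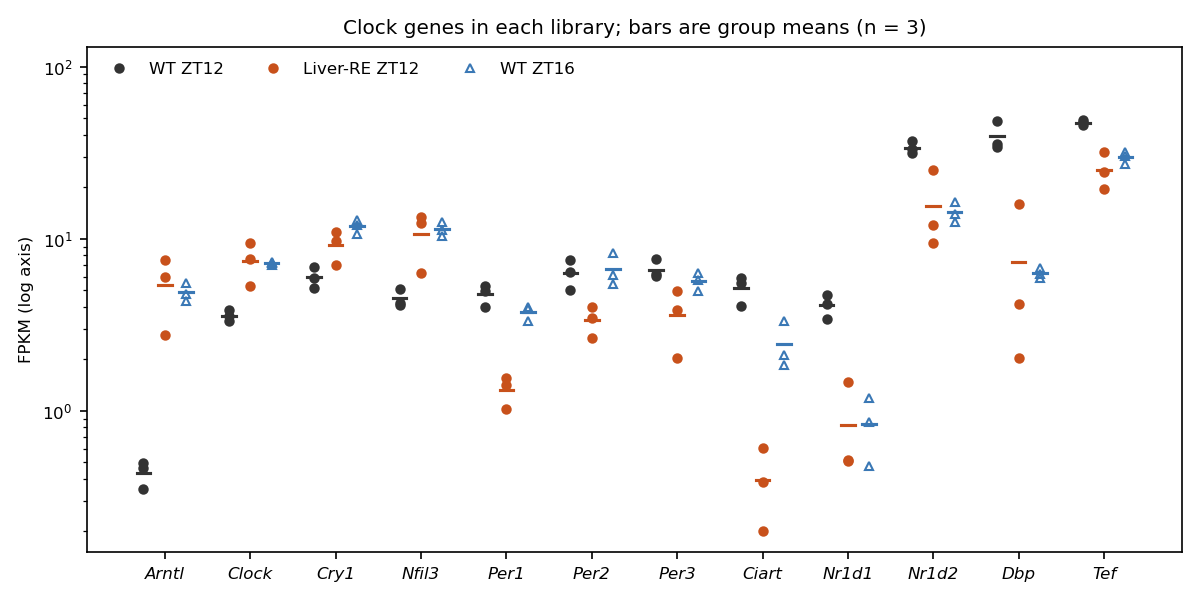
FPKM of 12 clock genes on a log axis in each WT and Liver-RE library at ZT12 and each WT library at ZT16, with bars for the group means (n = 3). Arntl was between 0.35 and 0.49 FPKM in WT at ZT12 and between 2.75 and 7.49 in Liver-RE, while for Per1 and Ciart the Liver-RE libraries at ZT12 lie below those of WT at both times.

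Setting the Liver-RE livers of ZT12 beside the WT livers of the next harvest, ZT16, gave smaller differences for most of these clock genes. Between Liver-RE at ZT12 and WT at ZT16, 60 genes differed (0.519% of those tested; 26 higher, 0.225%, and 34 lower, 0.294%, in Liver-RE), and that comparison uses the same Liver-RE libraries as the ZT12 comparison. Arntl was at 4.74, 4.37 and 5.55 FPKM in WT at ZT16, and the difference of Liver-RE at ZT12 from these was 0.04 on the log2 scale (limma adjusted p = 0.9727). The difference from WT ZT16 was 0.01 for Clock, -0.03 for Nr1d1, 0.00 for Nr1d2, -0.19 for Dbp and -0.14 for Nfil3, none of them called. For other clock genes it was not near 0. Ciart was at 1.86, 2.11 and 3.32 FPKM in WT at ZT16 and was lower in Liver-RE at ZT12 by 1.28 (adjusted p = 0.02866), and Per1, at 4.01, 3.32 and 3.89 FPKM in WT at ZT16, was lower by 1.03 (adjusted p = 0.0205). Against WT at ZT8, the previous harvest, 9 genes differed (0.0779%; 6 higher, 0.0519%, and 3 lower, 0.026%), but without WT ZT8 replicate 2 it was 127. The count of 60 against WT at ZT16 was 1 without WT ZT16 replicate 2 or replicate 3, 124 without Liver-RE ZT12 replicate 1, 14 without replicate 2 and 28 without replicate 3 of that group, and 40 without WT ZT16 replicate 1.

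The earlier phase was measured outside ZT12. A 24 h cosine was fitted to the 30 libraries of the other harvest times, in which 1272 genes were rhythmic in WT (11% of those tested) and 564 in Liver-RE (4.88%). Of the 170 genes rhythmic in both, the fitted peak came earlier in Liver-RE for 159, by a median of 3.55 h (quartiles 2.31 and 4.81 h). The fitted peak of Arntl was at ZT22.44 in WT and ZT18.58 in Liver-RE, earlier by 3.87 h. The advance was 4.94 h for Nr1d1, 5.15 h for Nr1d2, 4.36 h for Dbp, 4.01 h for Tef, 4.40 h for Nfil3 and 2.48 h for Cry1.

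These curves were then set against the ZT12 libraries, which had no part in them. Moving each WT curve 4 h earlier, by 1 harvest step, gave at ZT12 a difference with the observed sign for 133 of the 170 genes (78.2%), against 64.6% of all genes rhythmic in WT and 58.6% of all tested genes. Across these 170 genes, which share the same libraries, the difference from the moved curve and the observed ZT12 difference had a Pearson r of 0.75 and a Spearman rho of 0.69. Without WT ZT8 replicate 2 there were 233 such genes with a median advance of 3.49 h, and 83.3% had the observed sign. Without Liver-RE ZT12 replicate 3 it was 74.1%.

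**Figure D2:**
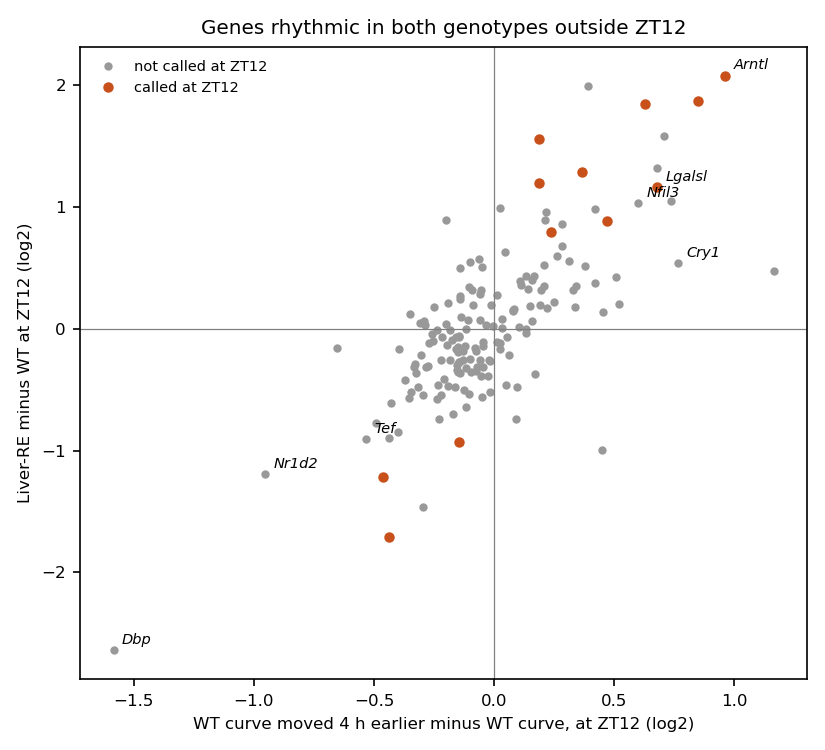
Each point is 1 of the 170 genes rhythmic in both genotypes outside ZT12, with the ZT12 difference that the WT curve gives when moved 4 h earlier on the x axis and the measured Liver-RE minus WT difference at ZT12 on the y axis, both log2. Points lie mostly in the lower left and upper right (Pearson r 0.75), with Dbp and Nr1d2 at the lower left and Arntl at the upper right.

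The 83 genes called at ZT12 were sorted with the other 30 libraries. A gene was placed under "all times" when the mean log2 difference of Liver-RE from WT had the ZT12 sign at each of the other 5 harvest times. The difference over them together also had to pass (limma adjusted p under 0.05). Over those times together 664 of all tested genes differed (5.75%), 131 higher in Liver-RE (1.13%) and 533 lower (4.61%), and 346 (3%) passed both parts of the rule. A gene was placed under "earlier phase" when it was rhythmic in WT, peaked up to 8 h earlier in Liver-RE, and the WT curve moved 4 h earlier gave the ZT12 sign and at least 0.5 of the ZT12 size. By these rules 16 of the 83 genes (19.3%) fell under all times, 7 higher and 9 lower, against 2.97% of all tested genes. No size was asked for at any single time. Some of those differences were small, as for Cux2 at ZT8 (-0.05), Prex2 at ZT4 (-0.03) and Tnxb at ZT16 (-0.05). Earlier phase took 3 genes (3.61%, against 3.33% of all tested genes), none met both rules, and 64 (24 higher, 40 lower) met neither. The share under earlier phase was therefore near that of all tested genes.

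That count moved with a single WT library and with the size asked for. Without WT ZT8 replicate 2, 9 of the 83 genes met the earlier phase rule, among them Arntl, Nr1d1, Pnrc1, Lgalsl, Slc45a3, Pdk4, Ypel2 and Ripk2, as did 5.04% of all tested genes, and all times stayed at 16. With at least 0.25 of the size asked for, 11 met it. Of the 28 called genes with a WT rhythm outside ZT12, 24 peaked earlier in Liver-RE by at most 8 h, and the median advance of the 28 was 4.31 h.

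A direct test of whether the ZT12 difference departs from the mean difference at the other 5 times called 138 genes (1.19% of those tested), 65 upward (0.563%) and 73 downward (0.632%). Among the 83 genes it called 33, of which 30 had met neither rule and 1 (Prex2) was among those at all times. The test uses the ZT12 libraries by which the 83 were chosen, so that number is a description and not evidence about them. That count of 138 was 1 without Liver-RE ZT12 replicate 2, 8 without WT ZT12 replicate 2, 10 without WT ZT12 replicate 3, 31 without Liver-RE ZT12 replicate 1, 84 without WT ZT4 replicate 3 and 90 without Liver-RE ZT4 replicate 1. Of the 83 genes, 18 kept the ZT12 sign at all 5 other times and 14 had it at 1 only, against 10.1% and 13.6% of all tested genes.

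**Figure D3:**
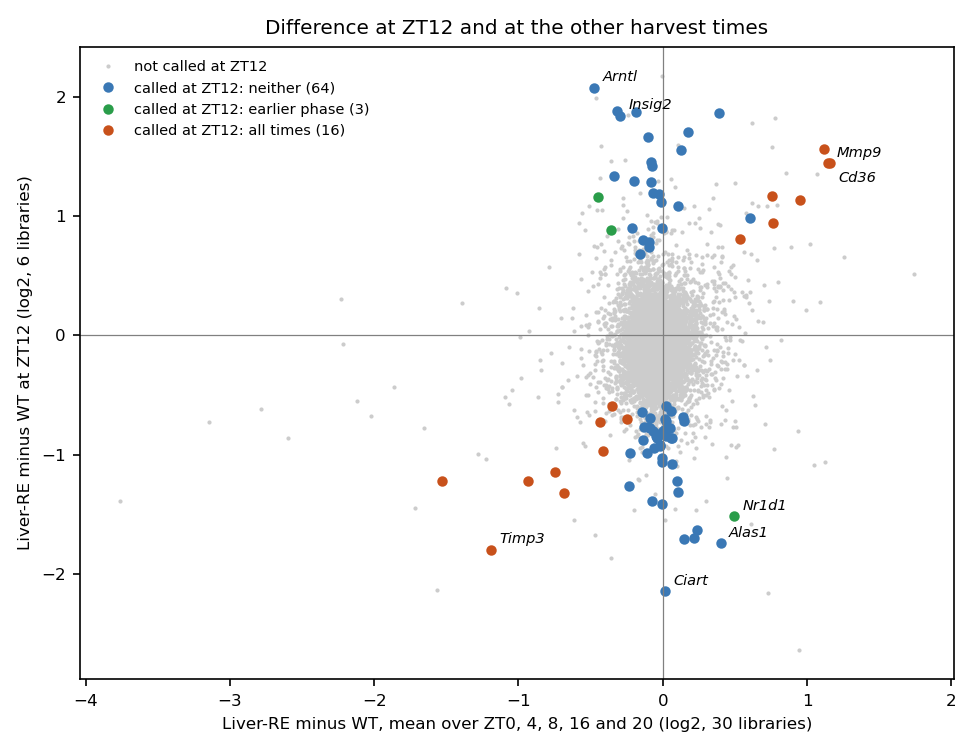
The Liver-RE minus WT difference at ZT12 (y axis, 6 libraries) against the mean difference over the other 5 harvest times (x axis, 30 libraries), both log2, for 11550 genes, with the 83 called genes coloured by sorting rule. The 16 genes at all times lie off the vertical axis with the same sign on both axes, and most of the 64 under neither rule lie along the vertical axis.

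The 3 genes placed under earlier phase were Nr1d1, Pnrc1 and Lgalsl. Pnrc1 (chromosome 4, 33245423 to 33248787), a coregulator of nuclear receptors, was at 13.2, 10.8 and 12.1 FPKM in WT and at 23.1, 23.9 and 21.9 in Liver-RE, with WT at ZT16 at 22.3, 23.1 and 26.1. Pnrc1 rose by 0.88 (SE 0.12, limma adjusted p = 0.02007) and its fitted peak was 3.92 h earlier. Lgalsl, which encodes a galectin-like protein, was at 2.90, 3.31 and 2.58 FPKM in WT and at 7.36, 10.2 and 6.12 in Liver-RE, with WT at ZT16 at 8.49, 8.42 and 7.60. It rose by 1.16 (SE 0.17, adjusted p = 0.02392), with a peak 3.66 h earlier. For both, the mean over the other 5 times had the opposite sign, at -0.36 for Pnrc1 and -0.45 for Lgalsl, neither of them called. KO livers at ZT12 averaged 38.2 FPKM of Pnrc1, 18.4 of Lgalsl and 0.31 of Nr1d1, measured against the same WT libraries. Each KO mean lay further from WT than that of Liver-RE, on the same side. Whether a level between WT and KO goes with these differences was not tested.

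The group that met neither rule held genes of liver metabolism, and also the clock genes Arntl, Ciart and Per1. Alas1 (chromosome 9, 106233455 to 106247954), the rate-limiting enzyme of heme synthesis, was at 221.9, 313.4 and 312.8 FPKM in WT and at 71.3, 87.6 and 90.4 in Liver-RE. Alas1 fell by 1.74 (SE 0.18, limma adjusted p = 0.01011), and at ZT16 the WT livers had 64.4, 124.6 and 99.6 FPKM. Over the other times Alas1 was on average higher in Liver-RE by 0.40 (adjusted p = 0.562). It was the 1 called gene among 13 tested of heme synthesis and breakdown, a list with a median difference of -0.13.

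Lpin1 (chromosome 12, 16535669 to 16653903), a phosphatidate phosphatase of triglyceride synthesis and a coregulator of fat oxidation, was between 28.1 and 40.5 FPKM in WT and between 7.86 and 12.5 in Liver-RE. It fell by 1.70 (SE 0.20, limma adjusted p = 0.01576) and was the 1 called gene of 21 tested for fatty acid and triglyceride synthesis, whose median difference was -0.41. Noct, a clock-driven phosphatase that acts on NADPH, was at 10.2, 11.5 and 9.73 FPKM in WT and at 2.79, 1.84 and 3.65 in Liver-RE. Noct fell by 1.63 (SE 0.18, adjusted p = 0.0118) and was also below WT at ZT16, by 1.502 (adjusted p = 0.0205). Coq10b, which binds coenzyme Q in mitochondria and whose promoter holds an E-box and a D-box, was at 51.7, 37.7 and 40.2 FPKM in WT and at 7.36, 12.6 and 20.3 in Liver-RE, a fall of 1.71 (SE 0.29, adjusted p = 0.04176). Nrg4, a secreted ligand of the ERBB receptors, fell by 1.42 (SE 0.22, adjusted p = 0.02878), and Rnf145, a ubiquitin ligase of sterol control, fell by 1.39 (SE 0.18, adjusted p = 0.01631).

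Genes that were higher in Liver-RE at ZT12 included transporters and a sterol sensor. Insig2 (chromosome 1, 121304353 to 121332662), which holds the sterol-regulated factor SREBP in the endoplasmic reticulum, was at 16.2, 14.2 and 12.0 FPKM in WT and at 71.3, 67.7 and 30.5 in Liver-RE. It rose by 1.84 (SE 0.29, limma adjusted p = 0.03101), with replicate 3 lowest. Of the 26 cholesterol synthesis and sterol sensing genes tested Insig2 was the only call, and 5 others, among them Sqle, were lower without overlap, a share near the 20.8% of all tested genes. Cldn1, a tight junction protein, was at 10.7, 8.47 and 6.05 FPKM in WT and at 34.3, 43.2 and 23.8 in Liver-RE, a rise of 1.88 (SE 0.24, adjusted p = 0.01576). Slc45a3, a sugar transporter, rose by 1.87 (SE 0.22, adjusted p = 0.01576), and Slc41a2, a magnesium transporter, by 1.86 (SE 0.26, adjusted p = 0.02206).

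Pdk4, the kinase that turns off pyruvate dehydrogenase in fasting, was at 1.90, 1.19 and 1.67 FPKM in WT and at 7.46, 4.04 and 12.7 in Liver-RE. It rose by 1.70 (SE 0.30, limma adjusted p = 0.04699) and was the 1 call among 19 insulin and FOXO fasting genes. Coq8a, needed for coenzyme Q synthesis, was at 27.3, 18.5 and 14.2 FPKM in WT and at 72.0, 77.6 and 45.0 in Liver-RE, a rise of 1.66 (SE 0.26, adjusted p = 0.03101). Acox2, the peroxisomal oxidase that shortens bile acid precursors, was at 25.03, 17.4 and 16.5 FPKM in WT and at 43.3, 49.6 and 34.6 in Liver-RE, a rise of 1.08 (SE 0.19, adjusted p = 0.04303). In the same list of 19 bile acid genes Cyp7a1, the rate-limiting enzyme of bile acid synthesis, averaged 82.0 FPKM in WT against 27.3 in Liver-RE (difference -1.55, adjusted p = 0.08573). Spon2, a secreted matrix protein, rose by 1.55 (SE 0.20, adjusted p = 0.01576), and Pde9a, a cyclic GMP phosphodiesterase, by 1.45 (SE 0.18, adjusted p = 0.01576). Of the 18 named called genes outside the clock list and outside all times, 16 lost their call without Liver-RE replicate 1 (adjusted p from 0.05216 to 0.1321), 16 without WT replicate 3 (from 0.05269 to 0.1521), 10 without WT replicate 2 (from 0.06647 to 0.1651), 7 without Liver-RE replicate 2 (from 0.05043 to 0.09541) and 5 without WT replicate 1 (from 0.05083 to 0.07706).

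**Figure D4:**
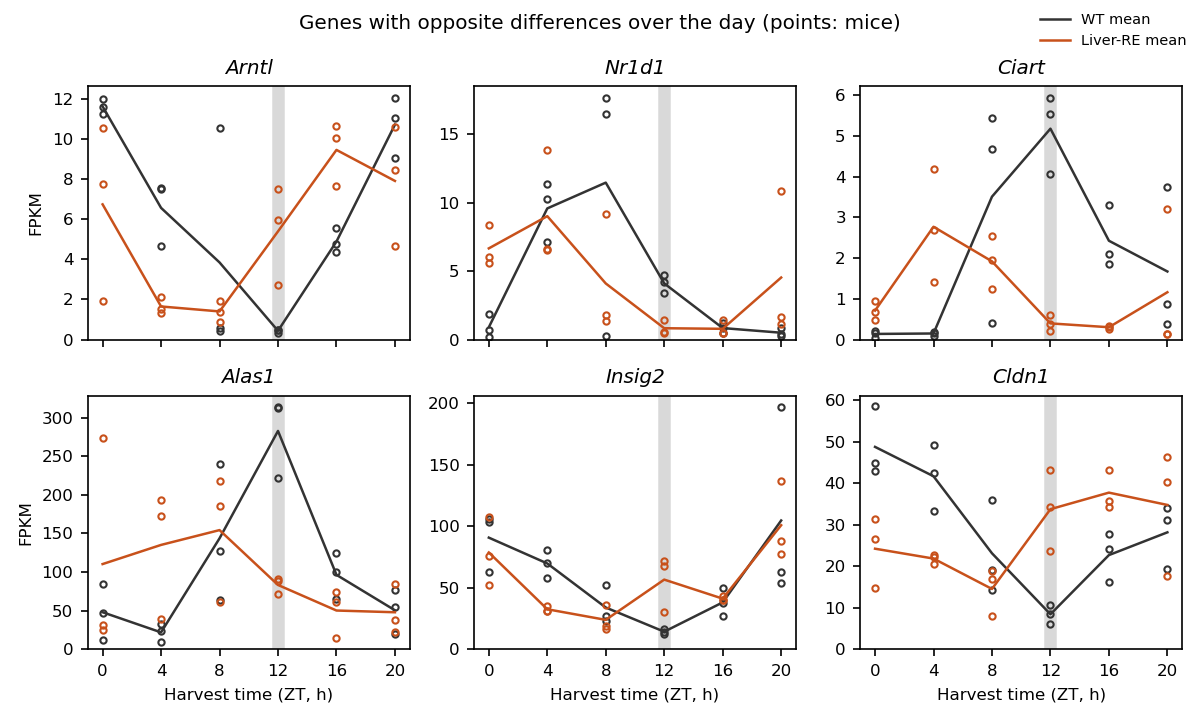
FPKM by harvest time for Arntl, Nr1d1, Ciart, Alas1, Insig2 and Cldn1, with open points for mice, lines for the means of 3 and a grey band at ZT12. At ZT12 Arntl, Insig2 and Cldn1 are higher and Nr1d1, Ciart and Alas1 lower in Liver-RE, while the means at ZT4 lie the other way for Arntl, Ciart, Alas1, Insig2 and Cldn1, and the WT point near 10.6 FPKM of Arntl at ZT8 is replicate 2.

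The genes placed under all times included genes of matrix, fat handling and cell adhesion. The lowest adjusted p at ZT12 was that of Timp3 (chromosome 10, 86300412 to 86349505), an inhibitor of matrix metalloproteinases, at 11.2, 10.3 and 12.5 FPKM in WT and at 2.32, 2.55 and 2.76 in Liver-RE. Timp3 fell by 1.796 at ZT12 (SE 0.12, limma adjusted p = 0.001053) and by 1.19 over the other 5 times (adjusted p = 8.414e-09). Its WT mean was 4.76 FPKM at ZT4 and 11.3 at ZT12, while the Liver-RE means lay between 2.05 and 3.99 FPKM through the day. In KO livers at ZT12 Timp3 was at 2.26, 2.85 and 2.42 FPKM, measured against the same WT libraries.

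Cd36 (chromosome 5, 17781690 to 17888959), a fatty acid uptake receptor, was at 22.8, 18.9 and 15.3 FPKM in WT and at 68.9, 49.6 and 42.8 in Liver-RE. It rose by 1.44 at ZT12 (SE 0.20, limma adjusted p = 0.02093) and by 1.16 over the other times (adjusted p = 5.365e-07), and KO livers at ZT12 had 49.0, 61.1 and 58.0 FPKM. Fitm1, which promotes lipid droplet formation, was at 3.58, 1.85 and 1.61 FPKM in WT and at 10.9, 9.46 and 6.09 in Liver-RE, a rise of 1.56 (SE 0.25, adjusted p = 0.03101), while KO livers had 0.97, 0.92 and 0.67 FPKM. Aldh1a1, which makes retinoic acid, rose by 1.16 (SE 0.21, adjusted p = 0.04859).

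Cd36 was the 1 called gene among 28 tested for PPAR-alpha and fatty acid oxidation. In that list 11 genes were higher and 0 lower without overlap between the groups, where 5.26% of all tested genes were higher, and the median difference was 0.27. Cyp4a14 and Cyp4a10, fatty acid hydroxylases, had differences of 1.82 and 1.57 with limma adjusted p of 0.06218 and 0.05814.

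Mmp9 (chromosome 2, 164940326 to 164955850), a matrix metalloproteinase of neutrophils and macrophages, was near the bottom of the scale in WT, at 0.07, 0.06 and 0.08 FPKM, and at 1.31, 3.01 and 1.67 in Liver-RE. It rose by 1.44 at ZT12 (SE 0.18, limma adjusted p = 0.01576) and by 1.14 over the other times. Cx3cr1, the fractalkine receptor of monocytes, was at 0.12, 0.08 and 0.13 FPKM in WT and at 1.33, 1.58 and 1.39 in Liver-RE, a rise of 1.13 (SE 0.09, adjusted p = 0.00272). KO livers at ZT12 had 2.05, 1.505 and 2.16 FPKM of Mmp9 and 1.91, 2.87 and 0.66 FPKM of Cx3cr1. Of the markers of Kupffer cells and macrophages, 0 of 14 were called in either direction, and their summed level was 369 to 505 FPKM in WT and 272 to 519 FPKM in Liver-RE. Over the other 5 times 5 of the 14 were called lower and 0 higher, with a median of -0.30, where 4.61% of all tested genes were lower. Of the neutrophil markers, 3 of 8 could be tested and Mmp9 was the only call. Mmp9 and Cx3cr1 passed the filter of 0.5 FPKM only through Liver-RE, the group where they are high, so a difference was required of them, and the call of Mmp9 adds nothing about its marker list. None of the markers in these 2 lists was at 0 in all 6 libraries, and the part of cell numbers in these differences was not tested.

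Vcam1, an adhesion molecule of endothelial cells, was at 11.8, 10.5 and 11.1 FPKM in WT and at 2.94, 4.78 and 5.12 in Liver-RE, a fall of 1.22 (SE 0.17, limma adjusted p = 0.0204). Cygb, a globin typical of stellate cells, was at 3.32, 2.37 and 2.99 FPKM in WT and at 0.66, 1.02 and 1.30 in Liver-RE, a fall of 0.97 (SE 0.15, adjusted p = 0.02821). The matrix genes split, with Mgp and Tnxb lower by 1.15 and 0.72 and the basement membrane collagen Col4a1 higher by 0.94. Endothelial markers had 0 of 15 called, 5 lower without overlap (20.8% of all tested genes were) and a summed level of 258 to 303 FPKM in WT and 186 to 271 FPKM in Liver-RE. Stellate and fibroblast markers had 0 of 13 called, 2 higher and 0 lower without overlap, and a summed level of 238 to 283 FPKM in WT and 168 to 286 FPKM in Liver-RE. Over the other 5 times 3 of these 13 were called lower and 1 higher, and of the 15 endothelial markers 1 lower and 1 higher. Over those times 4.61% of all tested genes were lower and 1.13% higher. The part of these cell types in the lower levels of Vcam1 and Cygb was not tested.

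Among genes that female livers express more than male livers, Cux2 had a lower mean in Liver-RE at all 6 times. Cux2, a female-specific repressor downstream of growth hormone, was at 3.42, 5.08 and 6.02 FPKM in WT and at 0.69, 1.35 and 2.02 in Liver-RE, a fall of 1.32 (SE 0.23, limma adjusted p = 0.04233). It fell by 0.69 over the other times (adjusted p = 0.04064). Of the 21 female-biased genes tested 2 were called lower at ZT12 and 0 higher, with a median difference of -0.52, and over the other 5 times 10 were lower, where 4.61% of all tested genes were. Cyp2b13 of the same list was higher without overlap at ZT12, by 1.36 (adjusted p = 0.06091).

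Of 9 genes at all times (Timp3, Cd36, Fitm1, Aldh1a1, Mmp9, Cx3cr1, Vcam1, Cygb and Cux2), Timp3 and Cx3cr1 kept their ZT12 call whichever ZT12 library was left out. The other 7 lost it without WT replicate 3 (limma adjusted p from 0.0582 to 0.1604), 6 without WT replicate 2 (from 0.0514 to 0.1546), 5 without Liver-RE replicate 1 (from 0.05541 to 0.1059), 5 without Liver-RE replicate 2 (from 0.0508 to 0.09339) and Cygb without WT replicate 1, at 0.05867. None of the 9 passed the direct test of a departure of ZT12 from the other times, with adjusted p from 0.1101 for Cygb to 0.7319 for Vcam1.

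**Figure D5:**
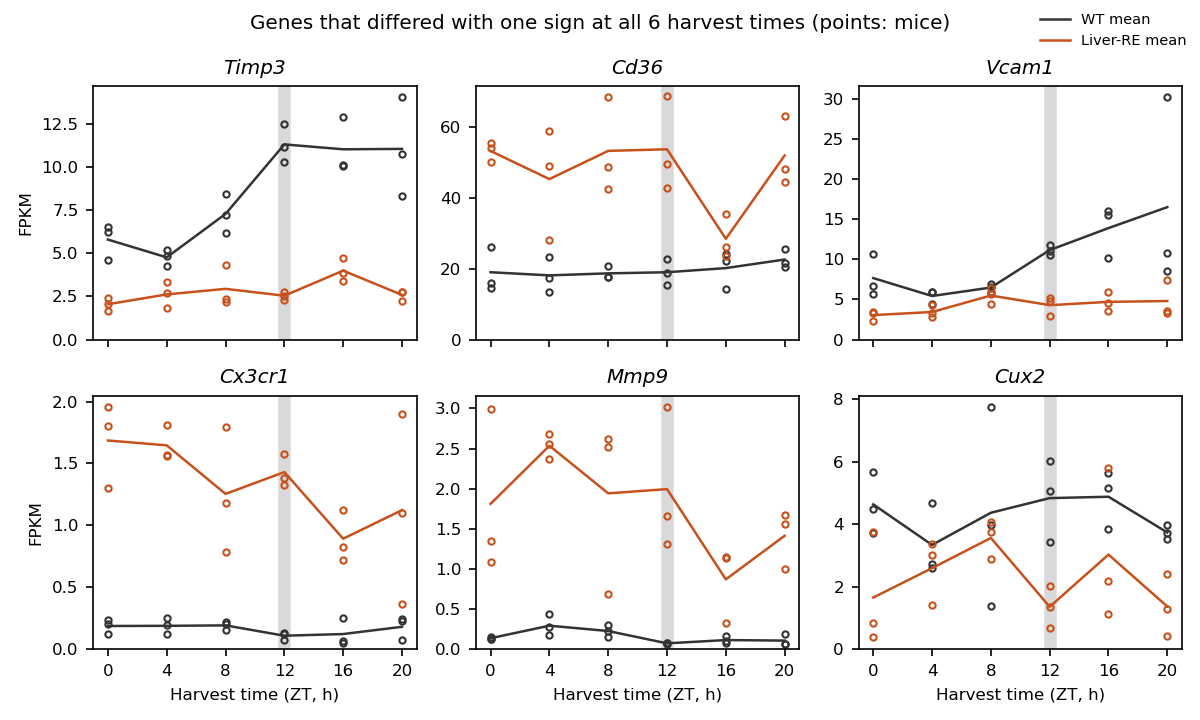
FPKM by harvest time for 6 genes placed under all times, with open points for mice, lines for the means of 3 and a grey band at ZT12. Timp3, Vcam1 and Cux2 have lower and Cd36, Cx3cr1 and Mmp9 higher means in Liver-RE at each of the 6 times, and the Timp3 mean in WT is 4.76 FPKM at ZT4 and 11.3 at ZT12.

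The liver label held in both groups, with hepatocyte markers such as albumin summing to 63910 to 76030 FPKM in WT and 60460 to 87610 in Liver-RE, and 0 of 14 called. Other lists held few or no calls at ZT12. Of 16 heat shock and cold-inducible genes 0 were called, 10 were lower without overlap, where 20.8% of all tested genes were, and the median difference was -0.34, with Hspa1b, an inducible chaperone, at -1.38 (limma adjusted p = 0.06626). Of 27 glycogen and glucose genes 0 were called. In that list Gys2, liver glycogen synthase, was at 163.7 FPKM in WT and 73.1 in Liver-RE (difference -1.17), and Ppp1r3c, a glycogen-targeting subunit, at 8.64 and 34.9 (difference 1.99), each with an adjusted p of 0.05881. No member of the lists for NAD metabolism, the urea cycle, acute phase proteins, the interferon response, male-biased genes, the unfolded protein response or hepatocyte markers was called. Adipocyte markers, with 0 of 5 called, had a summed level of 427 to 795 FPKM in WT and 1173 to 1336 FPKM in Liver-RE, of which Car3 alone averaged 542.9 in WT against 1257 in Liver-RE. Blood markers summed to 3.41 to 7.18 FPKM in WT and 10.4 to 15.4 in Liver-RE, with 0 of 2 called, biliary markers to 18.6 to 24.1 and 11.7 to 17.5, and lymphocyte markers overlapped. What part of the Cd36 difference goes with these markers was not tested.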

How the data were processed

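RNA was sequenced from 54 mouse livers, of which 36 (WT and Liver-RE, 3 mice at each of 6 harvest times) entered the fits and KO libraries are quoted beside single genes. Libraries, per the labels' protocols, kept strand, lacked ribosomal RNA and were read from 1 end. The authors deposited a table of values per gene and library whose unit is not named; from the values they were taken as FPKM, scaled by the authors for gene length and depth. CASAVA 1.8.2 and mm10 appear in the submitters' processing notes with no role; aligner and annotation were not given in the sources used here. Depth is an estimate from steps in low values, some of which (8.55 to 11.75% in the 6 ZT12 libraries) lay below 0.5 of a step, so whole reads were not recovered and no count model or counting interval was used.

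Genes with a mean of at least 0.5 FPKM over the 6 ZT12 libraries were analysed as log2(FPKM + 1), which understates changes of low genes; every fold change is a difference on that scale. The main fit used limma 3.58.1 (R 4.3.3, empirical Bayes with intensity trend) on those 6 libraries, two-sided, Benjamini-Hochberg over all 11550 genes. A 30-library fit gave the difference over the other 5 times and a 24 h cosine per genotype, and a 36-library fit the ZT12 difference minus that of the other times. Each library is taken as 1 mouse, from the design text's 3 per time and group. The fits were tested on simulated data with known changes. The labels give no pairing by replicate number. Deviations from the group means correlated at 0.042, -0.054 and 0.311 between ZT12 libraries of the same number. Between different numbers they lay from -0.192 to 0.126, and so few libraries cannot settle whether the numbers pair samples.

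Named are all tested clock list members and called clock outputs, the 10 highest and 10 lowest called genes with a mean of at least 1 FPKM in the higher group and no overlap, the 6 smallest p per sorting class, and up to 4 called members per list, 44 genes in all, predicted genes left out. Prex2, Mgp, Tnxb, Col4a1, Ypel2, Ripk2 and list members that were not called were named after their values were seen. The members and lists were chosen with earlier results of these data known. A few genes chosen this way are left out of the text. Gene coordinates come from RefSeq (GRCm38.p6, which is mm10). Python 3.11.15, pandas 2.3.3, numpy 2.4.6 and matplotlib 3.10.9 were used for sequences, depth and figures. Alternatives were a pseudocount of 0.1, no filter, quantile normalization, rescaling without the 20 highest genes, robust empirical Bayes, the replicate number as a block, wider fits, each library left out, and other sorting limits.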

Additional observations from a re-analysis of the deposited data

Results flagged for a closer look

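For 15 named genes the Liver-RE minus WT difference at ZT12 departed from the mean difference at the other 5 harvest times by a direct test (limma on 36 libraries, adjusted p under 0.05). Of clock genes, the departure was 2.55 for Arntl, 1.04 for Clock, -2.16 for Ciart and -3.58 for Dbp on the log2 scale. Genes higher at ZT12 departed by 2.19 (Cldn1), 2.05 (Slc45a3), 2.13 (Insig2), 1.76 (Coq8a), 1.42 (Spon2), 1.53 (Pde9a), 1.24 (Pnrc1), 1.61 (Lgalsl) and 0.97 (Acox2). Genes lower at ZT12 departed by -1.41 (Nrg4) and -1.31 (Rnf145). Most of these genes were named for their size or p at ZT12, and the test uses the same ZT12 libraries, so passing it was favoured by the choice. Over all tested genes the test called 138, with a range from 1 to 204 when replicate 2 or replicate 3 of Liver-RE at ZT12 was left out.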

How the results depend on the processing

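At ZT12 the 83 calls (33 higher, 50 lower) became 3 (1 and 2) with no filter, 133 (50 and 83) with robust empirical Bayes, 382 (69 and 313; 57 of them among the 83) in the fit of 36 libraries and 468 (101 and 367) in that of 54. Lower calls were 16 with quantile normalization and 26 after rescaling without the 20 highest genes. With each ZT12 library left out they ranged from 9 to 159, with 4 to 80 higher and 5 to 79 lower. With the replicate number as a block there were 219 calls (89 higher, 130 lower), and 32 against WT at ZT8. The labels do not say that the numbers pair samples.

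The 664 calls over the other 5 times (131 higher, 533 lower) were 419 after rescaling and 414 to 869 with a library left out. The 138 departures of ZT12 from the other times were 71 with no filter and 1 to 204 with a library left out. The 60 calls against WT at ZT16 were 28 with a pseudocount of 0.1, 38 with quantile normalization, 0 with no filter (limma; 1735 genes at an unadjusted p under 0.05) and 1 to 124 with a library left out. The 9 calls against WT at ZT8 were 2 with quantile normalization, 2 after rescaling, 0 with no filter (limma; 1748 unadjusted) and 0 to 127 with a library left out. Rhythmic genes outside ZT12 ranged from 815 to 1573 in WT and from 96 to 913 in Liver-RE, or 375 in Liver-RE with no filter.

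Of the genes called at ZT12, earlier phase took 1 with a move of 3 h, 7 with 5 h, 11 at 0.25 of the size, 1 at 0.75 and 2 where a Liver-RE rhythm was required. Leaving out WT ZT8 replicate 2 or Liver-RE ZT12 replicate 3 gave 9 and 6 under earlier phase, 16 and 24 under all times and 58 and 129 under neither. Chosen after seeing the data, the sorting of the 36-library calls put 39 under all times and 340 under neither, and the measured WT step from ZT12 to ZT16 in place of the curve put 48 under earlier phase, 1 under both and 19 under neither; 61.1% of tested genes meet that step, and it shares the WT ZT12 libraries.

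Over the named genes 447 values kept direction and side of the threshold, 151 fell back across it, 13 passed it newly and 5 turned sign. Those 5 were Cry2 at 0.10 (0.0965) with quantile normalization, 0.05 (0.0536) without WT replicate 1 and 0.06 (0.056) without Liver-RE replicate 2, and Rora at -0.06 (-0.057) without Liver-RE replicate 2 and -0.05 (-0.0513) without replicate 3, with neither gene called in any. With each ZT12 library left out Cry2 ranged from -0.1208 to 0.056 and Rora from -0.057 to 0.1575. Ciart, Timp3 and Cx3cr1 were called under all 14 alternatives. The causes of these shifts were not tested.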
